A study of Homo sapiens
Mus musculus with 25 samples.

Results

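The genes described here are 9 that intestinal goblet cells secrete or that direct their differentiation: ATOH1, SPDEF, TFF1, TFF2, TFF3, SPINK4, REG4, FCGBP and AGR2. They were chosen by name from the gene symbols of the deposited table, with earlier results of these data known. They are 9 of the 38128 genes it holds and 9 of the 18823 that passed the filter on low counts. RNA was sequenced from 25 subcutaneous xenografts grown in doxycycline-treated nude mice from HT29, an established line of human colorectal cancer cells that can form mucus-producing cells. PTPRK is a receptor-type tyrosine phosphatase of cell contacts, and the experiment asked what its loss and its return change in these tumours.

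The WT tumours (n = 5) carried the unedited line. The PTPRK KO tumours (n = 5) carried HT29 cells in which guide RNAs had targeted PTPRK, with tGFP (a green fluorescent protein) as the inserted gene. The other tumours carried the same PTPRK KO cells with an inserted gene for PTPRK (n = 6), for PTPRK.RQ, which has the R1095Q change at the catalytic arginine (n = 4), or for PTPRK.C1089S, which has the catalytic cysteine changed (n = 5). Per the study's methods, the knockout HT29 cells were sorted for loss of surface PTPRK and expanded, with no step of single-cell cloning described for them, and the inserted genes came from a doxycycline-inducible lentivirus that also made tGFP. In its images, the study describes uneven tGFP in the tumours with inserted PTPRK or PTPRK.RQ when set beside PTPRK KO tumours. The labels name the PTPRK.C1089S tumours, and the methods do not describe them. In the study's assays of recombinant protein, R1095Q removed catalytic activity and did not appear to trap substrates. The study describes C1089S as a substrate trap, with possible dominant-negative effects. In a bulk tumour, fewer cells of a type and less RNA per cell cannot be told apart.

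Goblet cells are secretory cells of the gut epithelium that fill with mucin and release it to form the mucus layer. ATOH1, a transcription factor that Notch signalling restrains, opens the secretory lineage, and SPDEF acts after it to drive the maturation of goblet cells. Mature cells secrete trefoil factors, small peptides that protect and repair the epithelium, together with mucus proteins, and they need protein-folding enzymes in the endoplasmic reticulum to do so.

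Levels are given as CPM, read counts per 1 M counts of a library whose size was scaled by the TMM method, and differences as log2 fold changes with their standard error (SE). A gene was called where the quasi-likelihood test of edgeR gave a p under 0.05 after Benjamini-Hochberg adjustment over all 18823 genes, and every adjusted p of a difference below is from that test. Libraries held 43.7 to 59.4 M counts. Mean PTPRK levels were 315 CPM in WT, 45.2 in PTPRK KO, 1853 in PTPRK, 1298 in PTPRK.RQ and 1507 in PTPRK.C1089S tumours, so the PTPRK transcript followed the labels. No 2 libraries of a group were alike within counting error. PTPRK KO replicate 4 stood apart for these genes, since it had the lowest level of its group in 9 of the 9, and it also had the highest PTPRK level among the knockout tumours (75.9 CPM). PTPRK.RQ replicate 3 was the lowest of its group in 8 of the 9 and had the highest PTPRK level of that group (1709 CPM). Whether the residual or regained PTPRK of these tumours had a part in that was not tested.

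Several goblet genes were higher in PTPRK.RQ tumours than in PTPRK or PTPRK.C1089S tumours, and none was called between the last 2 groups. TFF3, SPINK4 and FCGBP were 2.73, 3.40 and 2.99 times as high in PTPRK.RQ as in PTPRK tumours, and AGR2 and SPDEF 1.33 and 1.36 times as high. In all, 5 of the 9 rose in PTPRK.RQ against PTPRK tumours and none fell, where 1.54% of all tested genes were called higher. Without PTPRK.RQ replicate 1 or 2 these 5 calls became 1 and 2. Against PTPRK KO tumours the 3 inserted genes parted: 4 of the 9 fell with PTPRK (background 14.5% of all tested genes called lower), 3 fell with PTPRK.C1089S (7.35% called lower), and 3 rose with PTPRK.RQ (9.46% called higher). The 3 rises became 1 without PTPRK KO replicate 4 or without PTPRK.RQ replicate 1 or 2. These comparisons with PTPRK KO share its tumours. Here and below, counts from fits without single tumours are given without the share of all tested genes called in the same fit. Whether their shifts were particular to the goblet genes was not tested.

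**Figure D1:**
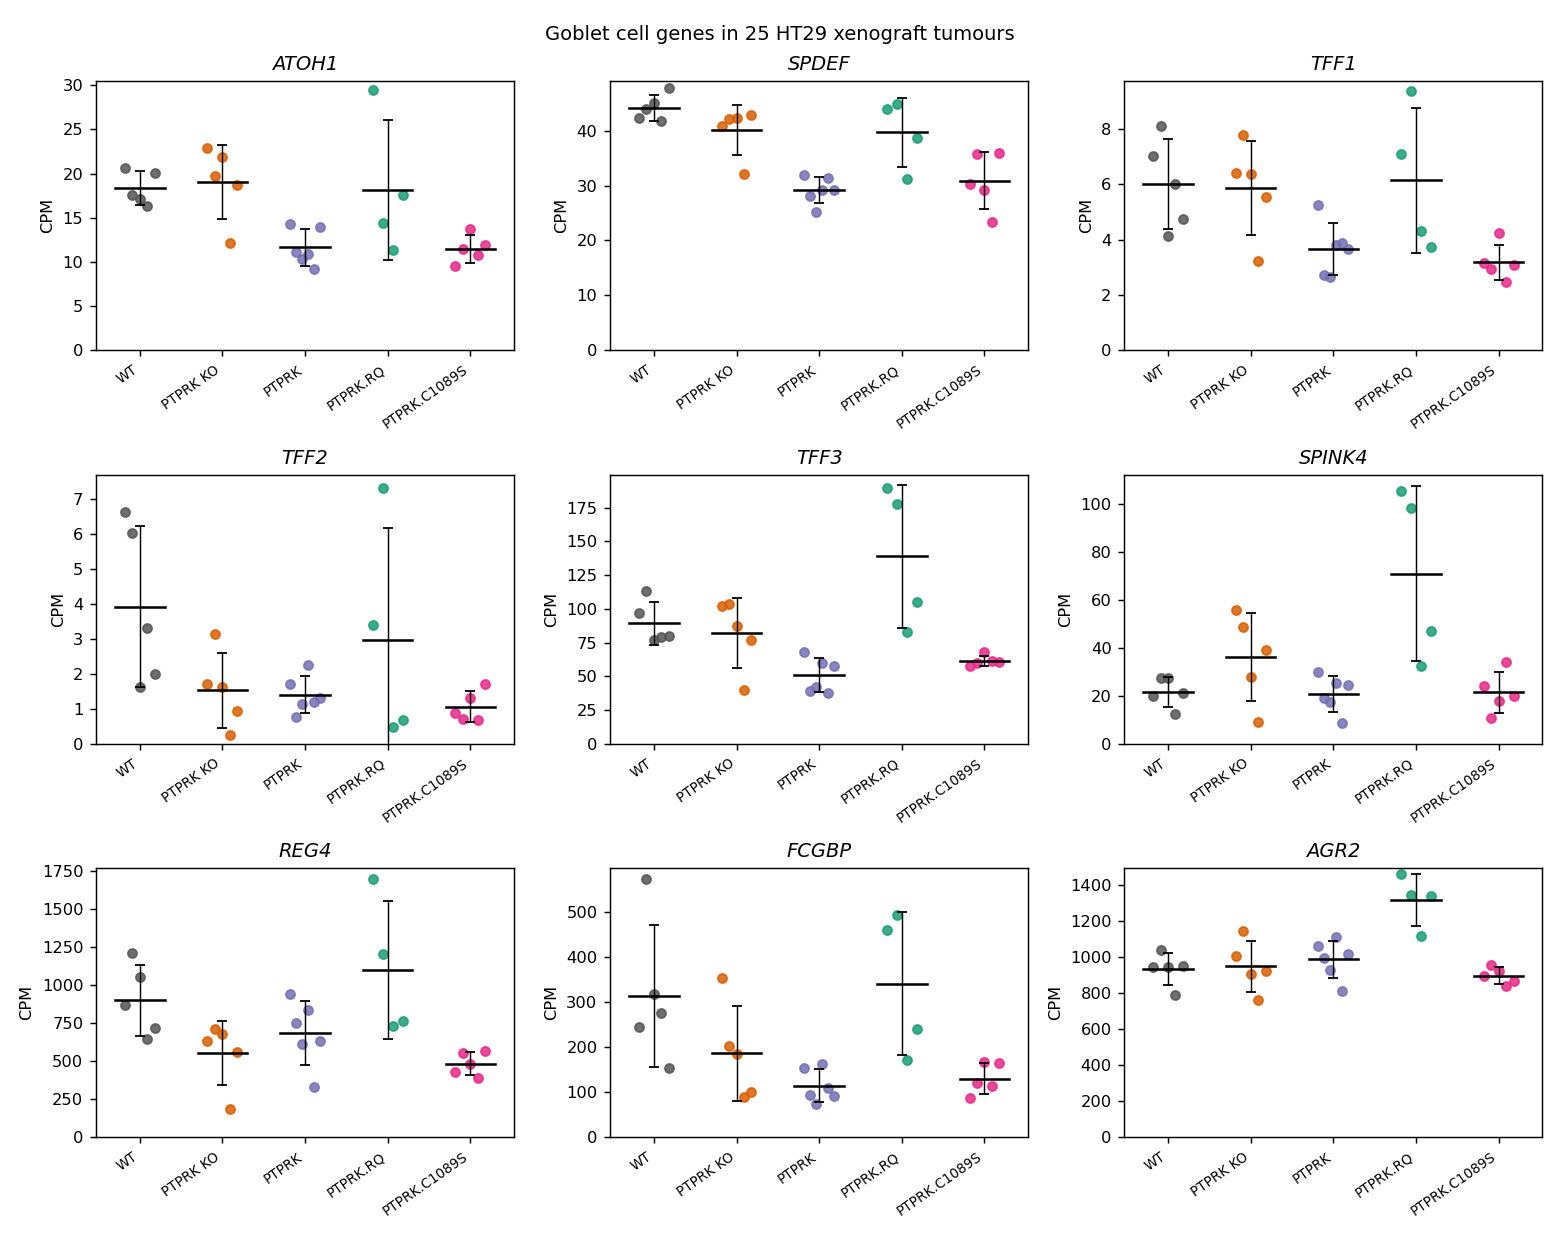
Level of each goblet cell gene in CPM (linear axis from 0, a separate scale for each gene) in the 5 groups. Points are tumours, black bars the group mean and error bars the SD, which for TFF2 in PTPRK.RQ tumours runs below the axis. TFF3 lay at 82.6 to 190 CPM in PTPRK.RQ tumours and at 37.7 to 67.9 CPM in PTPRK tumours.

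The regulators fell with PTPRK and with PTPRK.C1089S. ATOH1 was at 20.7, 17.6, 17.1, 16.4 and 20.1 CPM in WT tumours, at 22.9, 19.7, 21.8, 12.1 and 18.7 in PTPRK KO tumours and at 9.54, 11.4, 13.8, 10.7 and 11.9 in PTPRK.C1089S tumours. Its lowest, median and highest levels in PTPRK tumours were 9.15, 11.0 and 14.3 CPM. In PTPRK.RQ tumours it stood at 29.5, 14.4, 11.3 and 17.6 CPM. PTPRK KO replicate 4 lay among the PTPRK tumours, and the other 4 PTPRK KO tumours lay above all of them. PTPRK.RQ replicate 1 held the highest ATOH1 level of the 25 tumours, and the rest of its group overlapped every other group. Against PTPRK KO tumours, ATOH1 fell by 0.71 on the log2 scale in PTPRK tumours (SE 0.18, adjusted p = 0.00522) and by 0.73 in PTPRK.C1089S tumours (SE 0.19, adjusted p = 0.0085). Both calls held when any 1 tumour was left out. In PTPRK.RQ tumours the difference from PTPRK KO was -0.07, with a 95% interval from -0.48 to 0.34. The difference of 0.64 between PTPRK.RQ and PTPRK tumours did not pass the test (adjusted p = 0.0633).

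SPDEF varied little within groups, with a coefficient of variation of 5.44% to 16.7%. In WT tumours it was at 42.4, 43.9, 45.0, 41.8 and 47.8 CPM. PTPRK KO tumours held 40.9, 42.2, 42.3, 32.1 and 42.9 CPM, and PTPRK tumours held 25.3 to 32.0 CPM with a median of 29.2. The PTPRK and PTPRK KO tumours did not overlap, although PTPRK KO replicate 4 came within a fraction of a CPM of the highest PTPRK tumour. SPDEF fell by 0.46 on the log2 scale in PTPRK against PTPRK KO tumours (SE 0.10, adjusted p = 0.00154). In PTPRK.C1089S tumours (30.3, 35.7, 29.3, 23.4 and 35.9 CPM) it fell by 0.37 (SE 0.11, adjusted p = 0.0138). Both calls held without any 1 tumour. PTPRK.RQ tumours held 44.0, 44.9, 31.3 and 38.6 CPM, of which only replicate 3 fell within the range of the PTPRK tumours. Their difference from PTPRK tumours was 0.44 (SE 0.11, adjusted p = 0.0163), and it was lost without PTPRK.RQ replicate 1 or 2 (adjusted p up to 0.0825). From PTPRK KO tumours they differed by -0.01, with a 95% interval from -0.24 to 0.22.

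The 3 trefoil factor genes lie side by side on chromosome 21 within 54.9 kb (GRCh38, 42311667 to 42366535, all on the minus strand). TFF3 is the trefoil factor typical of intestinal goblet cells, and TFF1 and TFF2 are better known from the stomach. TFF3 was measured with 1864 to 9890 counts per tumour, TFF1 with 123 to 460 and TFF2 with 11 to 358. Gene lengths were not applied, so these counts show the precision for each gene and do not compare levels between genes.

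TFF3 stood at 190, 178, 82.6 and 105 CPM in PTPRK.RQ tumours and at 57.4, 59.9, 67.7, 61.6 and 60.7 CPM in PTPRK.C1089S tumours. PTPRK tumours ran from 37.7 over a median of 50.1 to 67.9 CPM. WT tumours were at 96.8, 113, 76.8, 78.8 and 79.7 CPM, and PTPRK KO tumours at 102, 104, 87.5, 39.8 and 76.9. All PTPRK.RQ tumours lay above all PTPRK and all PTPRK.C1089S tumours, with replicates 1 and 2 far above the rest. TFF3 was 1.45 higher on the log2 scale in PTPRK.RQ than in PTPRK tumours (SE 0.24, adjusted p = 0.00105), a call that held without any 1 tumour. PTPRK.C1089S tumours differed from PTPRK.RQ tumours by -1.18 (SE 0.25, adjusted p = 0.00965), which was lost without PTPRK.RQ replicate 1 (adjusted p = 0.0548).

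Against PTPRK KO tumours, TFF3 fell in PTPRK tumours (log2 fold change -0.69, SE 0.23, adjusted p = 0.0268) and rose in PTPRK.RQ tumours (0.76, SE 0.25, adjusted p = 0.0375). Neither of these calls was as firm. The fall was lost without PTPRK KO replicate 1, 2 or 3 or PTPRK replicate 2 or 3 (adjusted p up to 0.0801), and the rise without PTPRK KO replicate 3, 4 or 5 or PTPRK.RQ replicate 1 or 2 (up to 0.15). For PTPRK.C1089S the difference from PTPRK KO was -0.42, with a 95% interval from -0.91 to 0.08. By group mean the order was PTPRK.RQ (139 CPM), WT (89.1), PTPRK KO (82.1), PTPRK.C1089S (61.5) and PTPRK (50.8), and no neighbours in this order differed past the test.

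TFF1 was at 6.41, 7.80, 6.36, 3.22 and 5.56 CPM in PTPRK KO tumours and at 3.16, 2.96, 4.23, 2.46 and 3.07 in PTPRK.C1089S tumours. PTPRK tumours ran from 2.66 over a median of 3.74 to 5.25 CPM. PTPRK.RQ tumours split into replicates 1 and 2, at 7.10 and 9.39 CPM, and replicates 3 and 4, at 4.32 and 3.75 CPM, the latter level with the PTPRK tumours. TFF1 fell in PTPRK tumours against PTPRK KO (log2 fold change -0.68, SE 0.23, adjusted p = 0.03) and in PTPRK.C1089S tumours (-0.89, SE 0.25, adjusted p = 0.0132). The first call was lost without PTPRK KO replicate 1, 2 or 3 or PTPRK replicate 2 or 3 (adjusted p up to 0.0853), and the second held without any 1 tumour. Between the mutants TFF1 was lower in PTPRK.C1089S than in PTPRK.RQ tumours (-0.95, SE 0.26, adjusted p = 0.0323). That call was lost without PTPRK.RQ replicate 1 or 2 or PTPRK.C1089S replicate 1, 2 or 5 (up to 0.113).

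TFF2 gave no call in any of the 10 comparisons. Its levels ran from 0.235 CPM in PTPRK KO replicate 4 to 7.31 CPM in PTPRK.RQ replicate 2, and the PTPRK.RQ tumours alone covered 0.470 to 7.31 CPM. Its coefficient of variation within groups was 37.4% to 108%. Its lowest adjusted p was 0.0512, in PTPRK.C1089S against WT tumours (log2 fold change -1.89, 95% interval from -3.22 to -0.56).

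SPINK4, a protease inhibitor secreted by goblet cells, was at 106, 98.4, 32.6 and 46.9 CPM in PTPRK.RQ tumours. PTPRK tumours ran from 8.56 over a median of 21.8 to 29.9 CPM, and PTPRK.C1089S tumours stood at 24.0, 10.8, 17.8, 34.2 and 20.1 CPM. WT tumours held 19.7, 27.4, 27.5, 12.5 and 21.2 CPM, and PTPRK KO tumours 55.6, 48.5, 28.0, 8.90 and 39.0 CPM. PTPRK.RQ tumours lay above all PTPRK and all WT tumours, and PTPRK.RQ replicate 3 below the highest PTPRK.C1089S tumour. SPINK4 was higher in PTPRK.RQ than in PTPRK tumours by a log2 fold change of 1.77 (SE 0.43, adjusted p = 0.0231). This was lost without PTPRK replicate 2 or 3 or PTPRK.RQ replicate 1 or 2 (adjusted p up to 0.0941). In PTPRK.C1089S tumours it was lower than in PTPRK.RQ tumours by -1.73 (SE 0.45, adjusted p = 0.0313), lost without PTPRK.RQ replicate 1 or 2 or PTPRK.C1089S replicate 1, 2, 3 or 5 (up to 0.127). The rise over WT tumours, 1.71 (SE 0.45, adjusted p = 0.01), held without any 1 tumour. The SPINK4 gene overlaps BAG1 on chromosome 9, and reads were counted without regard to strand. BAG1 itself differed by 0.29 between PTPRK.RQ and PTPRK and by -0.41 between PTPRK.C1089S and PTPRK.RQ tumours, and the part of shared reads was not tested.

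REG4, a secreted lectin, was at 1692, 1201, 727 and 760 CPM in PTPRK.RQ tumours, all above the PTPRK KO tumours (629, 710, 677, 185 and 562) and the PTPRK.C1089S tumours (425, 552, 480, 388 and 562). PTPRK tumours ran from 332 over a median of 691 to 937 CPM and overlapped both. WT tumours were at 869, 1208, 1054, 645 and 719 CPM. Against PTPRK KO tumours REG4 rose in PTPRK.RQ tumours by 0.99 (SE 0.33, adjusted p = 0.0409), and PTPRK.C1089S tumours differed from PTPRK.RQ tumours by -1.19 (SE 0.33, adjusted p = 0.0426). Both calls sat near the threshold. The first was lost in 7 of 25 fits without 1 tumour (WT replicate 1, PTPRK KO replicate 1, 4 or 5, PTPRK.RQ replicate 1 or 2, PTPRK.C1089S replicate 2), with an adjusted p up to 0.181. The second was lost in 13 of 25 (WT replicate 1, 3 or 5, PTPRK KO replicate 1, PTPRK replicate 2 or 3, PTPRK.RQ replicate 1, 2 or 3, PTPRK.C1089S replicate 1, 2, 3 or 5), with an adjusted p up to 0.187. Between PTPRK and PTPRK KO tumours REG4 differed by 0.31 (95% interval from -0.32 to 0.93), which makes it the member with the highest estimate in that comparison.

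FCGBP, a large protein of the mucus gel, had a coefficient of variation within groups of 26.9% to 57.1%, against 5.19% to 14.7% for AGR2. It stood at 460, 492, 171 and 239 CPM in PTPRK.RQ tumours, and from 72.8 over a median of 101 to 163 CPM in PTPRK tumours. PTPRK.C1089S tumours held 86.2, 120, 166, 113 and 166 CPM. PTPRK.RQ tumours lay above both groups, replicate 3 by a small margin. The difference from PTPRK tumours was 1.58 (SE 0.39, adjusted p = 0.0275), lost without PTPRK replicate 2, 3 or 6 or PTPRK.RQ replicate 1 or 2 (adjusted p up to 0.113), and that between PTPRK.C1089S and PTPRK.RQ tumours was -1.39 (95% interval from -2.25 to -0.53, adjusted p = 0.0561). WT tumours spread over 244, 572, 317, 275 and 153 CPM and PTPRK KO tumours over 353, 203, 184, 88.0 and 101 CPM. Against WT tumours FCGBP fell in PTPRK tumours by 1.45 on the log2 scale (SE 0.38, adjusted p = 0.00553), which held without any 1 tumour. The fall of 1.26 in PTPRK.C1089S tumours (SE 0.40, adjusted p = 0.0369) was lost in 6 of 25 fits, without WT replicate 2, 3 or 4 or PTPRK.C1089S replicate 1, 2 or 4 (up to 0.143). Against PTPRK KO tumours FCGBP was not called, with differences of -0.70 (95% interval from -1.48 to 0.07) for PTPRK and -0.52 (-1.33 to 0.30) for PTPRK.C1089S.

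AGR2, a disulphide isomerase of the endoplasmic reticulum needed to fold mucin, changed by little and with high precision. It was at 1458, 1345, 1115 and 1339 CPM in PTPRK.RQ tumours, and its group means in the other tumours lay between 896 and 985 CPM. PTPRK tumours ran from 809 over a median of 1004 to 1107 CPM, PTPRK.C1089S tumours from 840 to 957 CPM and WT tumours from 789 to 1040 CPM, all below the PTPRK.RQ tumours. PTPRK KO replicate 2, at 1141 CPM, was the single tumour outside that group to reach its lowest level. AGR2 rose in PTPRK.RQ tumours against PTPRK KO by 0.47 (SE 0.10, adjusted p = 0.00118) and against WT by 0.49 (SE 0.10, adjusted p = 0.000997). PTPRK.C1089S tumours differed from PTPRK.RQ tumours by -0.55 (SE 0.10, adjusted p = 0.00163). These 3 calls held without any 1 tumour. The difference of 0.42 between PTPRK.RQ and PTPRK tumours (SE 0.10, adjusted p = 0.0123) was lost only without PTPRK.RQ replicate 1 (adjusted p = 0.0664). For the other inserted genes the interval of the difference from PTPRK KO was narrow, from -0.13 to 0.24 for PTPRK and from -0.27 to 0.11 for PTPRK.C1089S.

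**Figure D2:**
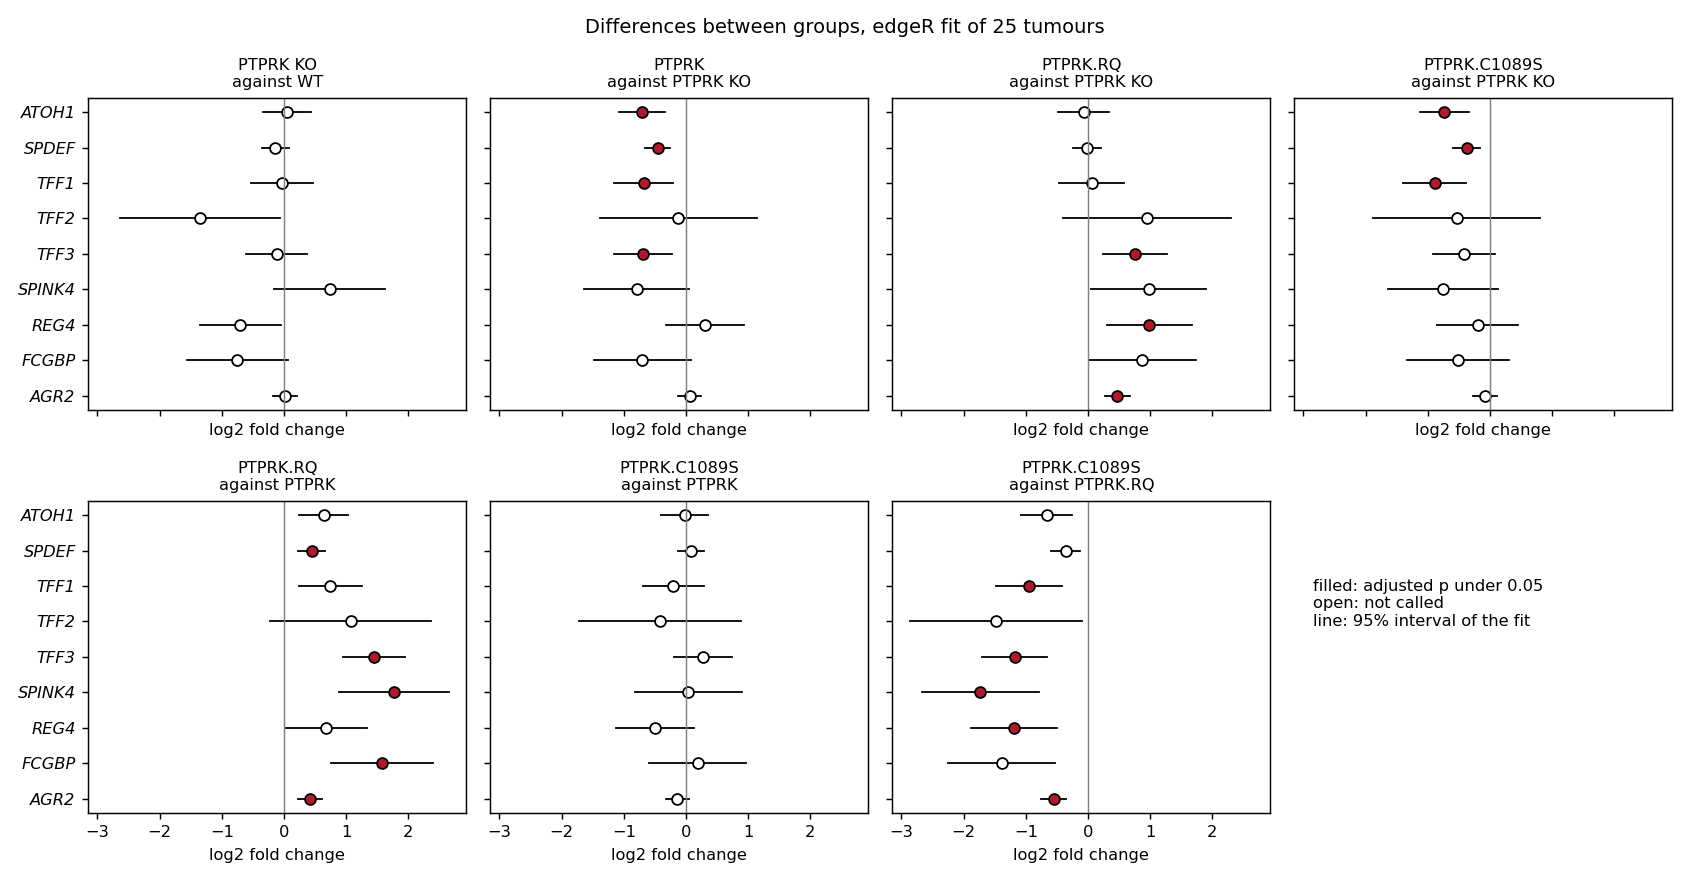
Log2 fold changes of the 9 genes in 7 comparisons from the edgeR fit of 25 tumours, with 95% intervals as lines. Filled points passed an adjusted p under 0.05. All 9 estimates lie right of 0 for PTPRK.RQ against PTPRK and left of 0 for PTPRK.C1089S against PTPRK.RQ.

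The PTPRK KO tumours gave no call against WT tumours, from which they also differ by editing, sorting and the inserted tGFP. In PTPRK KO against WT tumours 0 of the 9 passed edgeR's test, where 2% of all tested genes were called. TFF2 and REG4, at -1.36 and -0.70, were the 2 with an unadjusted p under 0.05, and DESeq2 also called 0. The median log2 fold change of the 9 was -0.12, against 0.01 over all tested genes. The intervals were narrow for AGR2 (-0.17 to 0.22) and SPDEF (-0.36 to 0.08) and wide for SPINK4 (-0.15 to 1.63) and FCGBP (-1.57 to 0.07).

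PTPRK tumours held 5.87 times the PTPRK level of WT tumours. Against PTPRK KO tumours, they had lower levels of the 2 regulators and of 2 trefoil factors, TFF1 and TFF3. The median over the 9 was -0.68, against 0.02 over all tested genes. Without PTPRK KO replicate 4 the count rose from 4 to 5, with SPINK4 added (adjusted p = 0.0404), and without PTPRK KO replicate 1, 2 or 3 or PTPRK replicate 2 or 3 it was 2, SPDEF and ATOH1. For PTPRK.RQ the median against PTPRK KO was 0.76, and the called genes were TFF3, REG4 and AGR2, all secreted or secretory-pathway products. Without PTPRK KO replicate 4 or 5 or PTPRK.RQ replicate 1 or 2 the 3 calls became 1, AGR2. For PTPRK.C1089S the median was -0.52, and the called genes were ATOH1, SPDEF and TFF1, with 3 calls also without that tumour.

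PTPRK.RQ against PTPRK tumours gave a median of 0.74 over the 9, against 0.01 over all tested genes. By edgeR's test 8 of the 9 had an unadjusted p under 0.05. The share of all tested genes at that unadjusted cut was not computed, here or below, so these counts have no background beside them. Leaving out PTPRK.RQ replicate 1 or 2 reduced the 5 calls to 1 and 2, and leaving out PTPRK replicate 2 or 3 to 3. PTPRK.C1089S against PTPRK.RQ tumours gave 5 calls, TFF1, TFF3, SPINK4, REG4 and AGR2, all lower, where 2.16% of all tested genes were called lower. The median was -1.18, and 9 of the 9 had an unadjusted p under 0.05, again without a background share at that cut. Single tumours moved that count both ways. It was 1 without PTPRK.RQ replicate 1, and 8 without PTPRK KO replicate 4, which is in neither group compared but enters the shared fit. It was 2 without PTPRK.C1089S replicate 1 or 2, and 3 without PTPRK.RQ replicate 2 or PTPRK.C1089S replicate 3 or 5.

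PTPRK.C1089S against PTPRK tumours gave 0 calls in edgeR and 0 in DESeq2, where edgeR called 13.2% of all tested genes in either direction. None of the 9 had an unadjusted p under 0.05. The median over the 9 was -0.02. Intervals covered -0.12 to 0.29 for SPDEF, -0.32 to 0.05 for AGR2, -0.40 to 0.36 for ATOH1 and -0.20 to 0.75 for TFF3, and they reached from -1.71 to 0.89 for TFF2.

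Set beside WT tumours, 5 of the 9 fell in PTPRK tumours, where 18.1% of all tested genes were called lower: SPDEF (log2 fold change -0.60, adjusted p = 0.000158), FCGBP (-1.45), ATOH1 (-0.66, adjusted p = 0.00696), TFF3 (-0.81, adjusted p = 0.00895) and TFF1 (-0.71, adjusted p = 0.0195). The TFF1 call was lost without WT replicate 2 (adjusted p = 0.0711). In PTPRK.C1089S tumours 4 fell, SPDEF (-0.51, adjusted p = 0.00148), TFF1 (-0.92, adjusted p = 0.0129), ATOH1 (-0.68, adjusted p = 0.0176) and FCGBP, where 6.93% were called lower. Without PTPRK.C1089S replicate 1 that count was 2, with ATOH1 at an adjusted p of 0.0535. In PTPRK.RQ tumours SPINK4 and AGR2 rose, 2 of the 9, where 12.3% were called higher.

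The order of the group means was alike for most of the genes at its ends. PTPRK.RQ held the highest mean for 6 of the 9 (TFF1, TFF3, SPINK4, REG4, FCGBP and AGR2), WT for TFF2 and SPDEF and PTPRK KO for ATOH1. The lowest mean was in PTPRK.C1089S for 5 genes and in PTPRK for 4. Of the 36 pairs of neighbouring group means, 2 differed past the test: TFF1 between PTPRK KO (5.87 CPM) and PTPRK (3.66 CPM), and AGR2 between PTPRK.RQ (1314 CPM) and PTPRK (985 CPM).

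**Figure D3:**
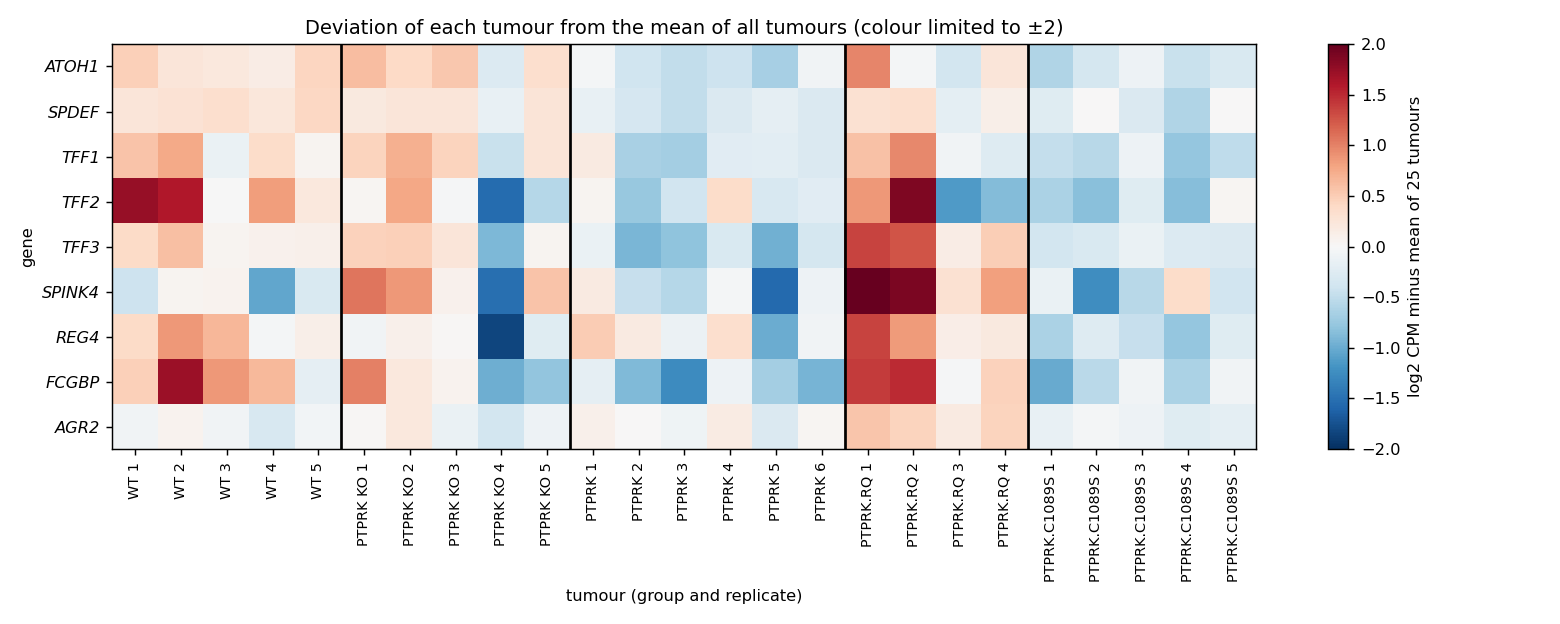
Log2 CPM of each gene in each of the 25 tumours minus the mean of that gene over all tumours (red above, blue below, colour limited to 2 on either side); black lines part the groups. PTPRK.RQ replicates 1 and 2 are above the mean in all genes except ATOH1 in replicate 2, which lies near it, and PTPRK KO replicate 4 is below the mean in all 9.

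The other goblet cell genes followed the same order in part. MUC2, the main gel-forming mucin of the colon, was at 176, 166, 69.0 and 97.0 CPM in PTPRK.RQ tumours and at 32.0, 47.1, 55.1, 56.1 and 70.0 in PTPRK.C1089S tumours. PTPRK tumours ran from 39.6 to 96.7 CPM. PTPRK.RQ replicates 1 and 2 stood above both groups, and replicate 3 within them. MUC2 fell in PTPRK.C1089S against PTPRK KO tumours (-0.96, adjusted p = 0.0434) and against PTPRK.RQ tumours (-1.29, adjusted p = 0.0304), and the difference of 0.96 between PTPRK.RQ and PTPRK tumours did not pass (adjusted p = 0.109). ZG16, a lectin of the mucus layer, rose from 1.34 to 8.52 CPM in mean between PTPRK and PTPRK.RQ tumours (log2 fold change 2.66, SE 0.51, adjusted p = 0.00399), and it was at 1.06 CPM in PTPRK.C1089S tumours (-3.01 against PTPRK.RQ, SE 0.55, adjusted p = 0.00296). REP15, a Rab effector, also rose (1.72 in PTPRK.RQ against PTPRK, adjusted p = 0.0145).

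Of 20 further genes of goblet secretion and mucus, 17 were tested. In PTPRK.RQ against PTPRK tumours 3 rose and none fell (background 1.54% up), and in PTPRK.C1089S against PTPRK.RQ tumours 6 fell and none rose (background 2.16% down). Against PTPRK KO tumours the counts were 2 up and 4 down for PTPRK, 6 up and 2 down for PTPRK.RQ and 1 up and 4 down for PTPRK.C1089S. Over all tested genes 14.1% were called up and 14.5% down for PTPRK, 9.46% and 9.68% for PTPRK.RQ, and 8.89% and 7.35% for PTPRK.C1089S. MUC5AC, a mucin of the stomach surface, took a course that none of the 9 showed in its calls. It fell in PTPRK KO against WT tumours (-1.25, adjusted p = 0.00183) and rose against PTPRK KO with PTPRK (0.88, adjusted p = 0.00224), with PTPRK.RQ (1.57, adjusted p = 1.84e-05) and with PTPRK.C1089S (0.81, adjusted p = 0.00709). CTSE of the gastric pit list and CA2 of the absorptive list were called in the same directions in these comparisons. ERN2, a stress sensor of the goblet cell endoplasmic reticulum, fell with PTPRK (-0.71, adjusted p = 0.00761) and with PTPRK.C1089S (-0.97, adjusted p = 0.00144).

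Among 16 further transcription factors of the goblet lineage, all tested, 1 rose and 5 fell in PTPRK against PTPRK KO tumours, 1 rose and 2 fell for PTPRK.RQ, and 1 rose and 6 fell for PTPRK.C1089S. The background shares are those given for the secretion genes. GFI1, which holds secretory progenitors to the goblet and Paneth fates, fell with PTPRK (-1.04, adjusted p = 0.00453) and with PTPRK.C1089S (-1.33, adjusted p = 0.00127). KLF4, a factor of goblet cell maturation, moved the other way: it fell in PTPRK KO against WT tumours (-0.54, adjusted p = 0.0136) and rose against PTPRK KO with each inserted gene (0.38, 0.69 and 0.48 for PTPRK, PTPRK.RQ and PTPRK.C1089S). No factor of this list was called between PTPRK.RQ and either of the other inserted genes.

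The Notch pathway list held 34 genes, of which 33 were tested. It gave 5 up and 6 down with PTPRK against PTPRK KO, 2 up and 3 down with PTPRK.RQ and 4 up and 4 down with PTPRK.C1089S. Over all tested genes the shares called up were 14.1%, 9.46% and 8.89%, and those called down 14.5%, 9.68% and 7.35%. The ligand DLL1 fell with all 3 inserted genes (-1.01, -1.04 and -0.98), and the ligand JAG1 rose with all 3 (0.76, 0.78 and 0.73). HES1, the Notch target that represses ATOH1, lay between 44.4 and 64.3 CPM in all 25 tumours and was called in none of the 10 comparisons, with log2 fold changes from -0.12 to 0.21.

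Markers of other cell types were read beside these results. The enteroendocrine list, cells that share the ATOH1-dependent secretory origin, had 6, 7 and 6 of its 11 tested genes lower with PTPRK, PTPRK.RQ and PTPRK.C1089S than in PTPRK KO tumours and none higher, where 14.5%, 9.68% and 7.35% of all tested genes were called lower. SST, which encodes somatostatin, was among the genes that fell with all 3 (-2.14, -2.18 and -1.62). The summed level of the list had a median of 46.7 CPM in PTPRK KO and of 17.1, 14.9 and 16.9 CPM with the 3 inserted genes, PTPRK.RQ included, so it did not follow TFF3 or AGR2. In PTPRK.RQ against PTPRK tumours 1 tested gene rose and none fell in each of 5 lists of epithelial cell types: GUCA2A of 10 absorptive genes (1.16, adjusted p = 0.00419), CLDN18 of 6 gastric pit genes (2.53, adjusted p = 0.013), PRSS2 of 4 Paneth genes (1.33, adjusted p = 0.0158), ALOX5 of 6 tuft genes (0.75, adjusted p = 0.00794) and PROM1 of 8 stem genes (0.40, adjusted p = 0.0221). The list medians were 0.52, 0.44, 0.41, 0.16 and -0.11, against 0.01 over all tested genes, of which 1.54% were called higher and 1.84% lower. No gene of the enteroendocrine list was called in this comparison (median -0.15), and 1 of 15 tested host genes was, DES, a muscle gene (1.59, adjusted p = 0.0479; host median 0.06). The host list of 22 genes from fibroblasts, vessels, muscle, fat and immune cells had 9 or 10 genes above 1 CPM in a group. It summed to between 2258 and 2547 CPM in PTPRK.RQ and between 2433 and 3197 CPM in the other tumours, nearly all of it LYZ, which the Paneth list also holds. Without LYZ the sums were 86.1 to 114 CPM in PTPRK.RQ, 91.8 to 114 CPM in PTPRK and 94.2 to 108 CPM in PTPRK.C1089S tumours. Some genes of the list were close to absent over all 25 libraries. Total counts were 3 for COL1A2, 9 for COL3A1, 45 for PTPRC, 97 for CDH5 and 0 for ADIPOQ. Of the 21 genes other than LYZ, 8 or 9 were above 1 CPM in a group. These are counts on the human genome, so they do not measure the mouse cells of a tumour directly.

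Within groups the 9 genes rose and fell together from tumour to tumour. After each group's mean was taken from log2 CPM, all 36 pairs over the 25 tumours had a positive Pearson's r, from 0.31 (SPINK4 with SPDEF) to 0.90 (TFF1 with TFF2), with a median of 0.60. A permutation test within groups (100000 draws, two-sided) gave an adjusted p under 0.05 for 32 of the 36, and Spearman's rho for 25. Without the 2 tumours farthest from the median of the first gene of a pair, all 36 stayed positive, from 0.17 to 0.83, and 14 passed. PTPRK KO replicate 4 and PTPRK.RQ replicate 2 were among the tumours left out. The pair TFF1 and TFF2 kept r = 0.83 (permutation adjusted p = 0.00198).

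**Figure D4:**
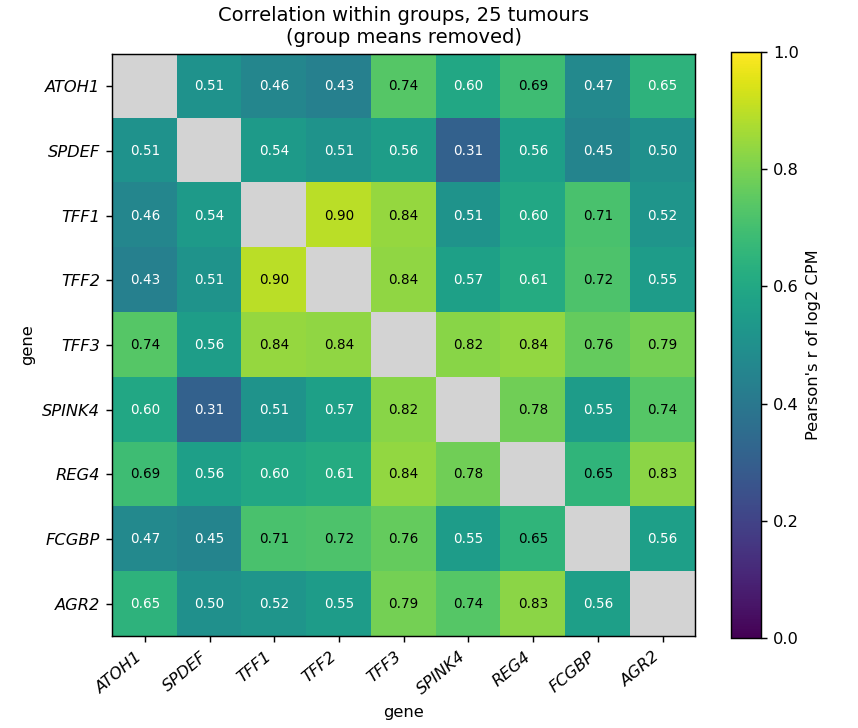
Pearson's r between each pair of genes over 25 tumours, computed on log2 CPM with the group means removed; both axes list the 9 genes and grey cells are a gene with itself. The trefoil factor pairs have r from 0.84 to 0.90, TFF3 with REG4 has 0.84, and SPDEF with SPINK4 is the lowest (0.31).

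By likeness over all tested genes, as a description over 25 tumours with group means removed, the gene nearest to FCGBP was MUC2 (r = 0.93). TFF3 was nearest to ST6GALNAC1, a sialyltransferase (0.89), and to ZG16 (0.87). TFF1 was nearest to its neighbour TFF2 (0.90) and to EVX1 (0.88), SPINK4 to AC009509.1 (0.91) and C15orf48 (0.89), REG4 to SLC6A20 (0.92), SPDEF to SDHAF1 (0.94), AGR2 to AIG1 (0.88) and ATOH1 to TOX (0.88). All values come from the same libraries. Summed host markers had r from -0.06 to 0.42 with the 9 genes, and library totals from -0.31 to 0.14. LYZ was part of that host sum and nearly all of it, and the sum without LYZ was not compared.

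In the 15 tumours with an inserted PTPRK gene, PTPRK was compared with each goblet gene. With group means removed, Pearson's r was negative for 9 of the 9, from -0.74 for SPDEF to -0.38 for ATOH1. By the permutation test within groups, adjusted over the 9 relations, 5 passed: SPDEF, TFF3 (-0.70) and TFF2 (-0.66), each with a permutation adjusted p of 0.0233, and FCGBP (-0.64) and REG4 (-0.64), each with 0.0443. By Spearman's rho none passed (rho from -0.72 to -0.36, permutation adjusted p from 0.0556 to 0.237). Without PTPRK replicate 1 and PTPRK.RQ replicate 3, the tumours farthest in PTPRK level, r lay between -0.64 and 0.06 over 13 tumours and none passed after adjustment. SPDEF was then at -0.64 (permutation p = 0.0492 before adjustment), TFF2 at -0.58 (permutation p = 0.037 before adjustment) and ATOH1 at 0.06. In the 11 PTPRK and PTPRK.C1089S tumours alone, r was negative for 9 of the 9 (-0.64 to -0.38) and none passed.

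**Figure D5:**
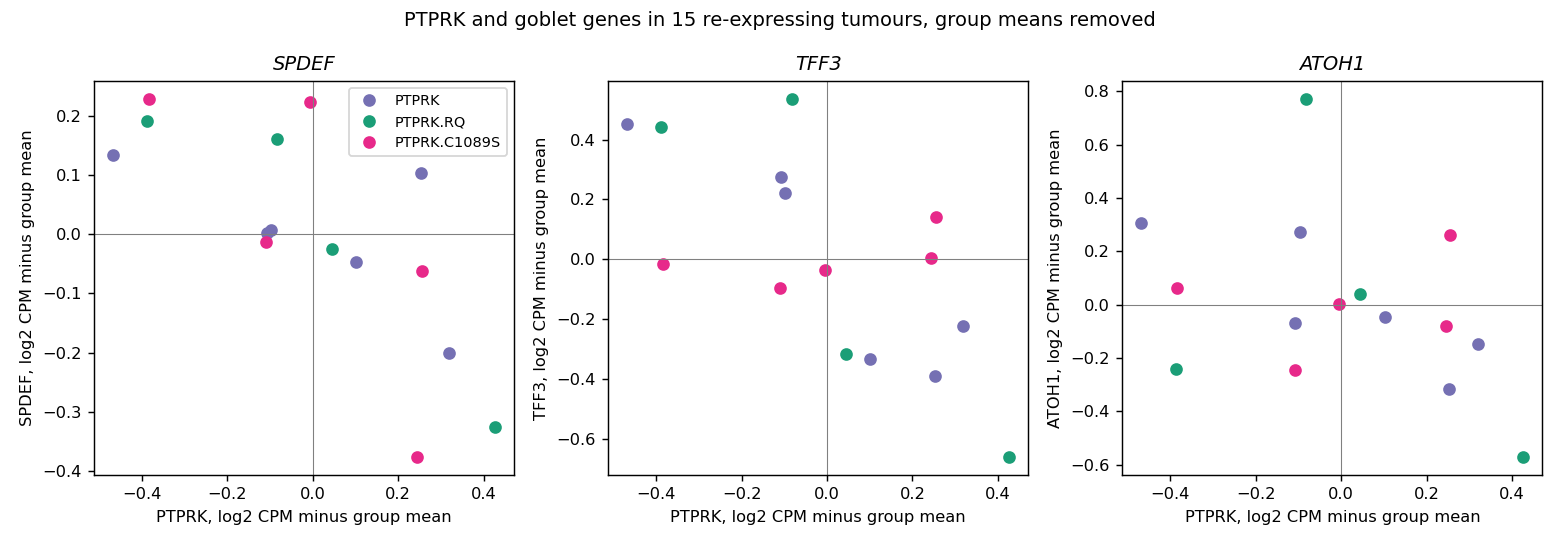
SPDEF, TFF3 and ATOH1 against PTPRK in 15 tumours with an inserted PTPRK gene, each axis in log2 CPM minus the mean of the tumour's group. Points are tumours, coloured by group; r was -0.74, -0.70 and -0.38. PTPRK.RQ replicate 3 is the point at the far right and at the bottom or near it.

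The genes around each member did not all stay level. Medians were taken over the 50 tested genes nearest on the chromosome. Around the trefoil factor cluster, a span of 3.83 Mb, the median log2 fold change was between -0.08 and 0.10 in the 10 comparisons. In PTPRK.RQ against PTPRK tumours the closest of them were all higher by estimate: SLC37A1 (0.34), TMPRSS3 (0.43), RSPH1 (0.46), AP001625.2 (0.79), ABCG1 (0.86) and UMODL1 (0.98). In PTPRK.C1089S against PTPRK.RQ tumours the same genes were all lower, from -0.12 (SLC37A1) to -1.22 (AP001625.2). With PTPRK against PTPRK KO they lay between -0.68 (TMPRSS3) and 0.03 (UMODL1). Whether they and the trefoil factors share a cause was not tested. Around SPDEF the neighbours were lower in PTPRK.RQ tumours, by a median of -0.25 against PTPRK and -0.38 against PTPRK KO, where SPDEF itself stood at 0.44 and -0.01. The neighbours of FCGBP were at -0.44, -0.52 and -0.35 against PTPRK KO with PTPRK, PTPRK.RQ and PTPRK.C1089S, where FCGBP stood at -0.70, 0.87 and -0.52. AGR2's neighbours were at 0.21 in both PTPRK and PTPRK.RQ against PTPRK KO tumours, where AGR2 stood at 0.06 and 0.47.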

How the data were processed

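The authors deposited 1 table of raw read counts per gene for 25 tumours. Per the study's methods, reads were trimmed, mapped separately to the human and mouse genomes, filtered on mapping quality and counted on exons without regard to strand. HISAT2 2.1.0 and GRCh38 are named in the submitters' processing notes. Mouse reads that map to conserved human sequence may remain, and genes that overlap on opposite strands share reads.

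Of the 38179 rows, 51 with a repeated identifier were left out, and 9840 of the 38128 genes had no count. Groups came from the labels. A single fit in edgeR 4.0.16 (R 4.3.3) held all 25 tumours in 5 groups, with TMM scaling, filterByExpr and the robust quasi-likelihood test, and 18823 genes were tested in 10 comparisons with Benjamini-Hochberg adjustment at 0.05. Log2 CPM adds 0.5. The code was tested on simulated data. Alternatives were DESeq2 1.42.0, other scalings, no filter, fits of 2 groups or of 4 groups without PTPRK replicate 6, a replicate block and fits without each tumour. Correlations used permutations within groups (numpy 2.4.6). The relation with PTPRK without PTPRK.RQ tumours was added after seeing the data.

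All 9 genes, PTPRK, MUC2, HES1 and KLF4 are named, and from other lists at most the 3 called genes with the largest change per comparison. For likeness, the 3 nearest genes were kept. BAG1 and the genes closest to the trefoil factors are named as neighbours. The members and lists were chosen with earlier results of these data known. Labels do not say whether tumours shared a host animal. The study's methods describe injection of each mouse in the right flank, for cell lines that do not include PTPRK.C1089S. They name a single line for each group described, so p-values measure the spread between these tumours and not between lines. The counts are of reads, without molecular identifiers.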

Additional observations from a re-analysis of the deposited data

Results flagged for a closer look

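In groups of 4 to 6 tumours, the gap of the highest and lowest tumour to its neighbour was compared with Dixon's 95% limit for 45 sets, 9 genes in 5 groups. PTPRK KO replicate 4 lay beyond it for SPDEF (32.1 CPM) and REG4 (185 CPM), 2 of the 45, and chance alone passes this limit in about 0.05 of such sets.

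The effects of the inserted genes against PTPRK KO were taken to differ where their direct edgeR contrast was called after Benjamini-Hochberg adjustment. PTPRK KO drops out of that contrast, so the calls are those already reported above and not a further test. For PTPRK.RQ against PTPRK these were TFF3 (log2 fold change 1.45), SPINK4 (1.77), SPDEF (0.44), AGR2 (0.42) and FCGBP (1.58). For PTPRK.C1089S against PTPRK.RQ they were TFF1 (-0.95), TFF3 (-1.18), SPINK4 (-1.73), AGR2 (-0.55) and REG4 (-1.19). Of these calls, only TFF3 in the first comparison and AGR2 in the second held without any 1 tumour.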

How the results depend on the processing

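Upper-quartile factors and size factors by the RLE method kept every count of called genes within 1.5 times. In the fit of 4 groups without PTPRK replicate 6, 2 genes were called for PTPRK against PTPRK KO and 1 for PTPRK.RQ against PTPRK KO. With only the 2 groups compared, the counts were 1 for PTPRK.RQ against PTPRK KO, 3 for PTPRK.RQ against PTPRK, 3 for PTPRK.C1089S against PTPRK.RQ and 7 for PTPRK.C1089S against WT. Without the filter on low counts they were 1 for PTPRK.RQ against PTPRK KO and 3 for PTPRK.C1089S against PTPRK.RQ, for which DESeq2 called 8. Leaving out 1 tumour at a time gave 2 to 5 for PTPRK against PTPRK KO, 1 to 3 for PTPRK.RQ against PTPRK KO, 1 to 6 for PTPRK.RQ against PTPRK, 1 to 8 for PTPRK.C1089S against PTPRK.RQ and 2 to 6 for PTPRK.C1089S against WT, and left the counts of 0 at 0. Whether replicate numbers pair the tumours was not settled. Between groups, 18 of 46 same-number pairs correlated above 0.1 (median r 0.03), against 56 of 203 pairs with different numbers (median r -0.02). Of the 25 tumours, 8 correlated best with their own number. A replicate block called 3 genes for PTPRK.RQ against PTPRK and changed no other count by over 1.5 times. No called value changed sign. The counts from these alternative fits are given without the share of all tested genes called in the same fit. Whether a shift was particular to the goblet genes, or went with the number of calls in that fit, was not tested. The cause of these shifts was not tested. Each library held 43.7 M counts or more. The lowest count among the member genes was 11, for TFF2 in 1 tumour. TFF2 counts in PTPRK.RQ tumours were 176, 358, 25 and 36, and the part of depth in their spread was not tested.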
